A study of Mus musculus with 2 samples.

Results

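Interferon-high lymphocytes were examined among natural killer (NK) cells of the mouse brain as a small set of cells rich in transcripts that interferon induces. The NK cells came from untreated females aged 8 months, were sorted by flow cytometry, and were read at the 5′ end of their transcripts with 10x Genomics droplet chemistry. There was 1 library of wildtype C57BL/6 animals, labelled healthy, and 1 library of 3xTg-AD animals. 3xTg-AD is an Alzheimer's disease model that carries mutant human APP and tau transgenes, driven in neurons by a Thy1 promoter, together with a mutant presenilin 1 gene. How many mice were pooled per library, and on which background strain the 3xTg-AD line was kept, the labels do not say. With 1 library per genotype, genotype and preparation cannot be told apart and no test between them was possible.

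A barcode marks 1 droplet, usually 1 cell, and each counted molecule carries a unique molecular identifier (UMI). A barcode was a member if it held at least 5 UMIs summed over 9 interferon genes: Isg15, Irf7, Ifi27l2a, Ifit3, Ifit1, Cxcl10, Rsad2, Usp18 and Ifi44. It also needed at least 300 genes, at most 10% of its UMIs from mitochondrial genes, and no UMI of the T cell genes Cd3g, Cd3d and Cd3e or the microglia genes C1qc, C1qb and C1qa. The members were 60 of the 3347 barcodes of both libraries that passed quality. Of these, 56 lay among 1662 wildtype barcodes (3.37%, exact 95% Clopper-Pearson interval 2.56 to 4.35) and 4 among 1685 3xTg-AD barcodes (0.237%, 0.0647 to 0.607). All intervals here cover counting error only, not differences between animals or preparations.

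The 56 wildtype members are described against an NK reference from the same library. The reference held 1484 barcodes with at least 1 UMI of Ncr1 or Klrb1c, which encode the NK receptors NKp46 and NK1.1, and fewer than 5 UMIs of the 9 genes. Members had a median of 3352 UMIs (541 to 12778) and 1414 genes, against 2931 UMIs and 1373 genes in the reference. Median mitochondrial shares were 1.70% and 1.44%. Summed UMIs were 221067 and 4793749, and a gene's level is given as CPM, its UMIs scaled to a sum of 1000000 per group. The 9 genes chose the members, and every other gene was read in the same cells, so all ratios of members over reference describe these barcodes and none is a test. A ratio carries its exact conditional Poisson 95% interval, which leaves out variation between cells.

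Type I interferons bind the receptor subunits Ifnar1 and Ifnar2, and the kinases Jak1 and Tyk2 then activate STAT transcription factors. With Irf9 these form a complex that binds the interferon-stimulated response element (ISRE) in the promoters of antiviral genes. Interferon gamma acts through STAT pairs that bind another element, GAS. NK cells respond to interferons with raised cytotoxicity, and during maturation they lose Cd27 and Il7r and gain Klrg1 and S1pr5.

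The promoters of 4 genes high in the members show an element that is frequent in the lists of interferon genes. Ifit1 and Isg15 are among the 9 genes of the rule, while Oas3, which makes the antiviral messenger 2-5A, and Igtp, an interferon-inducible GTPase, are not. Each line gives the 250 bases before the start site from RefSeq (GRCm38.p6), 5′ to 3′ on the gene's strand, and capitals mark matches to the ISRE core, which is GAAA, any 2 bases and GAAA again, or to its reverse complement, TTTC, any 2 bases and TTTC.
Ifit1, chr19:34640639-34640888, plus strand: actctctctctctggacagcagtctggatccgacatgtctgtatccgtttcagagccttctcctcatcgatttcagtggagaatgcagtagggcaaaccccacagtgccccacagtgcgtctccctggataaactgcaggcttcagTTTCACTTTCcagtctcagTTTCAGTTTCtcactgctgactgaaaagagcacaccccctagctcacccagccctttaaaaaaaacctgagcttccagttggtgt
Isg15, chr4:156200819-156201068, minus strand: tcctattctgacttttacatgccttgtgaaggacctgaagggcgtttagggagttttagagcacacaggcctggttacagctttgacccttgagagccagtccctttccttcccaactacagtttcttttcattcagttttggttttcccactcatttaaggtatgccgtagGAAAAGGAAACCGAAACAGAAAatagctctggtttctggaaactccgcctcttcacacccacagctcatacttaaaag
Oas3, chr5:120777660-120777909, minus strand: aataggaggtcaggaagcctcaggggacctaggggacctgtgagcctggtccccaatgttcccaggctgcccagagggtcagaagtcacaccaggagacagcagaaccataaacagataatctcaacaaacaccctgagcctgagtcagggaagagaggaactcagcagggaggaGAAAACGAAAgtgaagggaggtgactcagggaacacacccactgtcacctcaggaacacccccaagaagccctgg
Igtp, chr11:58199306-58199555, plus strand: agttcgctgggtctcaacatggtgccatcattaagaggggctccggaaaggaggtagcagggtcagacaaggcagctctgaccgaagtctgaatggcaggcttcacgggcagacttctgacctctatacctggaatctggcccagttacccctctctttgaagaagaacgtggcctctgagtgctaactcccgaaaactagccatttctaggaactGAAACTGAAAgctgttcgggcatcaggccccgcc
Ifit1 held 2 separate matches, Isg15 a run of 3 overlapping ones, and Oas3 and Igtp 1 each. The match nearest the start site ended 75, 56, 65 and 24 bases before it, in that order.

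Over windows from 250 bases before to 50 after the start site, 1079 of 27025 genes with a RefSeq promoter held such a match on either strand (3.99%). It was found in 5 of the 7 genes of the rule that had an entry, namely Cxcl10, Ifit1, Ifit3, Isg15 and Rsad2. Of other type I interferon response genes 15 of 44 held it (34.1%), as did 8 of 9 genes of the p200 family and 10 of 11 interferon-inducible GTPases. Among MHC class I presentation genes it was found in 5 of 19, namely B2m, Erap1, H2-T22, H2-T23 and Psme1. In the list of terminal NK maturation genes, such as Klrg1 and S1pr5, 0 of 11 windows held it. The same was true for 0 of 10 windows of less mature NK genes and 0 of 8 of tissue residency genes. The less mature NK and tissue residency lists lay on the higher side in the members, in the results below. At a rate of 3.99% over all genes such short lists can lack a match, so nothing is read from its absence. A match to TTCNNNGAA, the GAS core, was found in 9.55% of all genes and in 7 of the 11 GTPases. It was also found in 5 of 10 less mature NK genes, 2 of 11 terminal maturation genes and 0 of 8 tissue residency genes. Matches are letters in a window and do not show binding.

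The 9 genes were unevenly shared out among the wildtype members. Irf7, a transcription factor that amplifies interferon production, was found in 52 of 56 members with 216 UMIs, and Isg15, a ubiquitin-like modifier, in 47 with 298 UMIs. Ifit3 and Ifit1, which act on viral RNA, were found in 34 and 27 members with 110 and 87 UMIs, and Usp18, a brake on the interferon receptor, in 31 with 61 UMIs. Ifi44 was found in 26 members (53 UMIs) and Rsad2, which encodes the antiviral enzyme viperin, in 23 (70 UMIs). Ifi27l2a reached 207 UMIs in only 16 members, with a median of 12 in those and a highest value of 31. Cxcl10, a chemokine that attracts lymphocytes, had 72 UMIs in 15 members, of which 3 members held 45. Irf7 and Isg15 were thus spread over most members, whereas Ifi27l2a and Cxcl10 UMIs lay in few.

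In the 1484 reference barcodes Irf7 had 290 UMIs and Isg15 157, both in more than 100 barcodes, so low counts of these genes were common outside the members. Ifit3 had 5 UMIs there, Ifi44 6, Ifit1 11, Ifi27l2a 18 and Usp18 28. Rsad2 and Cxcl10 had 1 UMI each. The rule fixes most of this gap, since reference barcodes could hold at most 4 UMIs of the 9 genes.

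The sum of the 9 genes had a median of 16.5 UMIs in wildtype members (5 to 79). Members just inside the limit were few, with 3 at a sum of 5 and 3 at a sum of 6. Just outside lay 17 wildtype barcodes with a sum of 3 and 6 with a sum of 4, while 1411 of 1568 (90.0%) had a sum of 0 or 1. The 5 members of highest sum held 295 of 1174 UMIs (25.1%). The median member held UMIs of 5 of the 9 genes (2 to 9), and 51 held 3 or more. In 20 members a single gene gave more than 0.5 of the sum, most often Ifi27l2a (8 members) or Isg15 (7 members).

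**Figure D1:**
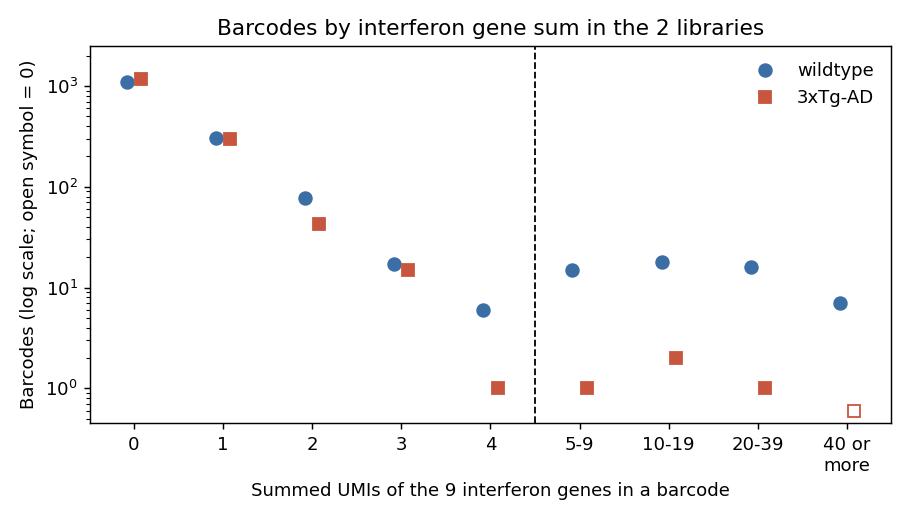
Number of barcodes (log scale) by the summed UMIs of the 9 interferon genes in the wildtype library (circles) and the 3xTg-AD library (squares), with the limit for members as a dashed line. From a sum of 5 upwards the wildtype library holds 56 barcodes and the 3xTg-AD library 4, and the open square marks 0 barcodes.

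**Figure D2:**
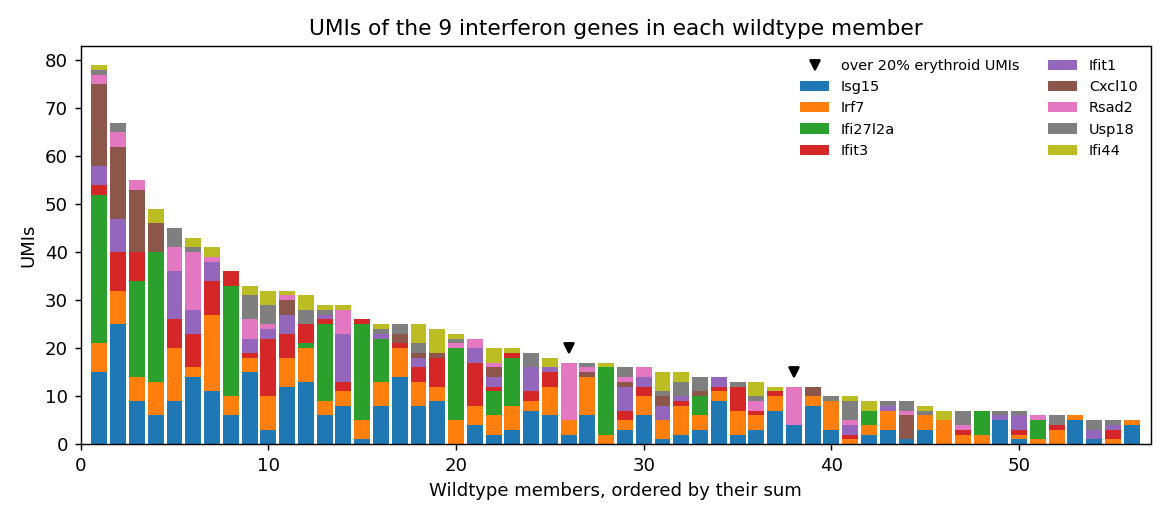
UMIs of each of the 9 interferon genes (stacked colours, vertical axis) in each of the 56 wildtype members, ordered by their sum along the horizontal axis. Triangles mark 2 members that drew over 20% of their UMIs from erythroid genes, and their bars are largely Rsad2.

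Ifit1 was found in 4 of the 16 members with Ifi27l2a and in 23 of the 40 without it. Both genes count towards the sum that chose the members, and a barcode that reaches the limit through one does not need the other, so nothing is read from this split. Members with Ifi27l2a had 13905 CPM of the other type I interferon genes and members without it 12727 CPM, so their levels of the wider list were close. Bst2, which encodes the virus-tethering protein tetherin, stood at 1266 and 659 CPM in these groups.

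A few facts of the libraries touch the members. Totals were 5559995 UMIs in 1709 wildtype barcodes and 5468455 in 1695 3xTg-AD barcodes, and the libraries shared 1 barcode, which was no member. A doublet caller, Scrublet, marked 13 and 22 barcodes and no member. In 2 wildtype members 83.2% and 51.8% of the UMIs came from erythroid genes such as Hbb-bs, and 1 reference barcode exceeded 20%. These 2 members held 20 of the 70 Rsad2 UMIs and 20 of the 119 Isg20 UMIs, and all 30 UMIs of Apol11b among members. Hbb-bs itself stood at a ratio of 88.9 with them and 1.32 without them.

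The members carried the markers of NK cells. All 15 NK marker genes in the files were detected, and 55 of 56 members held more than 3 UMIs of them (median 81, 2 to 313, against 120, 7 to 502, in the reference). Ncr1 or Klrb1c was found in 47 members, and 9 had neither. The T cell markers Cd4, Cd5, Cd6, Cd8a and Bcl11b, which the rule did not use, were at 0 UMIs, and 3 of 12 T markers were detected with at most 3 UMIs in a member. Cd79a and Ms4a1 of B cells, Csf1r, P2ry12 and Tmem119 of microglia, Lyz2 of monocytes, Siglech of plasmacytoid dendritic cells and S100a8 of neutrophils were at 0 as well. Of the 13 monocyte and dendritic markers, which include Bst2, Cd74 and Ly6c2, 8 were detected, with 0 to 32 UMIs per member (median 6) and 0 to 40 per reference barcode (median 3). All 12 markers of type 1 innate lymphoid cells, such as Cxcr6, were detected, with 0 to 19 UMIs per member (median 0.5) and 0 to 23 per reference barcode (median 0). They stood at 710 CPM in the members and 252 CPM in the reference. None was found in 28 of 56 members and 1086 of 1484 reference barcodes, and 15 members held more than 3 UMIs of them. The part of either list in the results below was not tested. The label of lymphocytes met no contrary defining marker, apart from the 2 erythroid-rich barcodes, and most members held a UMI of Ncr1 or Klrb1c. Of 8 barcodes with C1q UMIs, which should lack both, 50% held Ncr1 and 50% Klrb1c, so a UMI of either does not by itself make a barcode an NK cell.

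Of 2784 genes with a mean of at least 50 CPM over both groups, 158 (5.68%) were at least 2-fold higher in the members and 150 (5.39%) at least 2-fold lower. The median log2 ratio over all of them was -0.16. Of the 2784 genes 186 passed only through their level in the members, and their ratios are given as values. With 50 CPM asked of the reference alone, which does not let a gene pass through the members, 61 of 2872 genes (2.12%) were higher and 243 (8.46%) lower. Scaled without the 9 genes and without ribosomal and mitochondrial genes, 239 were higher and 153 lower, and the median moved to -0.07.

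Effector genes of the interferon response outside the rule were the main group on the higher side. Of 51 listed genes in the files 34 passed the filter on low values, 20 of them only through their level in the members. Among the 14 with at least 50 CPM in the reference, 11 were past 2-fold on the higher side and none on the lower side, and their median log2 ratio was 1.67. Over all 2872 genes at that level 2.12% were higher and the median was -0.25. The rule picked cells on the same programme, so these counts are read as a description.

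Ifitm3, which blocks the entry of viruses into cells, had 62 UMIs in 13 members and 6 UMIs in 5 reference barcodes, a ratio of 224 (97.3 to 634). Slfn5, of the Schlafen family, had 31 UMIs in 18 members and 7 in the reference, and Oasl1, which binds double-stranded RNA, 30 and 7. Oas3 had 23 and 6 UMIs. These 4 genes and Isg20 passed the filter on low values only through the members, so their UMIs and ratios are given as values. Isg20, an exonuclease that degrades viral RNA, had 119 UMIs in 30 members and 70 in 53 reference barcodes, a ratio of 36.9 (27.2 to 50.3), or 32.6 without the 2 erythroid-rich members. Bst2 was found in 41 members with 184 UMIs and in 202 reference barcodes with 251, a ratio of 15.9 (13.1 to 19.3). It was therefore present at a low level in the reference too.

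Further effectors, picked after their values were seen, were broadly detected in the members. Rtp4, a chaperone of membrane receptors, was found in 40 of 56 with a ratio of 18.3 (13.4 to 24.9). Xaf1, which promotes cell death, was found in 41 with a ratio of 7.40 (5.72 to 9.51), and Trim30a in 39 with a ratio of 9.37 (7.33 to 11.9). Samhd1, which depletes deoxynucleotides, was found in 36 with a ratio of 3.98 (3.08 to 5.08). Shisa5 was found in 55 members and 1199 reference barcodes, and its ratio was 2.39 (2.18 to 2.62).

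Per barcode, the other interferon genes ranged from 15.1 to 603 UMIs per 10000 in the members, with a median of 141, and from 0 to 121 in the reference, with a median of 31.0. The groups overlapped: 54 of 56 members lay above the reference median and 32 above the highest reference barcode. Levels went up with the sum that chose the members, at 7405 CPM for sums of 5 to 9 (15 members), 10713 CPM for sums of 10 to 19 (18 members) and 18996 CPM for sums of 20 or more (23 members). Reference barcodes with a sum of 0 stood at 3255 CPM and those with 1 to 4 at 3364 CPM. Bst2 followed the same order, at 144, 621 and 1483 CPM in the members, against 44.5 and 70.6 CPM in the reference.

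**Figure D3:**
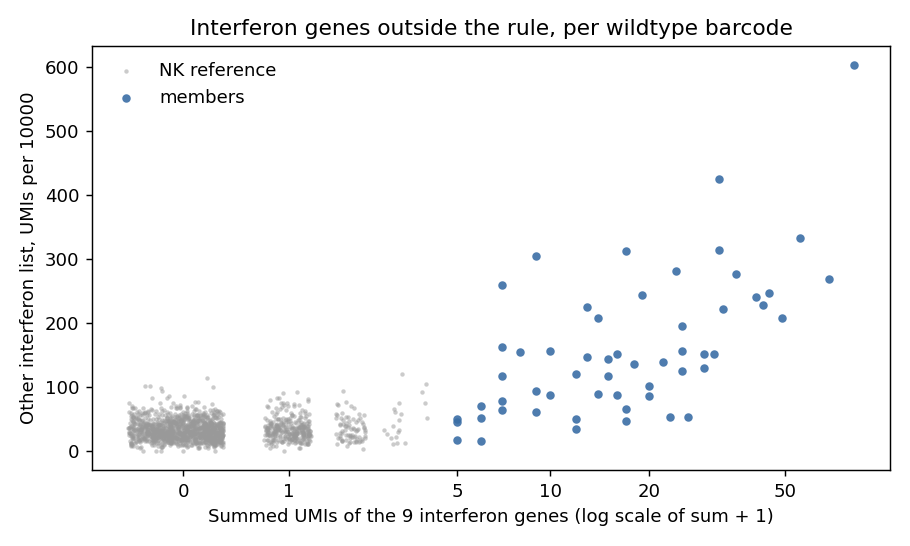
Each point is a wildtype barcode, with the summed UMIs of the 9 genes on the horizontal axis (log scale of the sum plus 1, reference points spread sideways) and the UMIs per 10000 of type I interferon response genes outside the rule on the vertical axis. Reference barcodes (grey) reach 121 and members (blue) 603, with 32 of 56 members above every reference barcode.

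Sensors of foreign nucleic acid were among the higher genes. Eif2ak2, which encodes the RNA-activated kinase PKR, had 37 UMIs in 24 members and 76 in 71 reference barcodes, a ratio of 10.6 (6.93 to 15.8). Zbp1, a sensor of Z-form nucleic acid that triggers necroptosis, was found in 42 members with 122 UMIs, a ratio of 9.55 (7.65 to 11.9). Ddx58, which encodes RIG-I, stood at 2.58 (1.71 to 3.75), and Aim2, a DNA sensor, at 1.89 (1.08 to 3.11). The sensors were thus not equally high. Ifih1, which encodes MDA5, had 15 and 35 UMIs and did not reach the mean level asked for. Of the 15 sensors and adaptors 6 passed the filter on low values, 2 of them only through the members, namely Eif2ak2 and Aim2. Of the 4 others 2 were at least 2-fold higher, against 2.12% of all genes with 50 CPM in the reference. Tlr9 had no UMI in either group.

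The p200 family encodes nuclear DNA-binding proteins from a gene cluster on chromosome 1. Ifi208 (chr1:173673675-173698395, mm10) had 71 UMIs in 29 members and 137 in 123 reference barcodes, a ratio of 11.2 (8.32 to 15.1). Mndal (chr1:173849126-173942491) was found in 49 members with 172 UMIs, a ratio of 4.45 (3.75 to 5.24), and Ifi203 and Ifi209 stood at 4.38 and 4.37. Ifi202b (chr1:173962568-173982744), of the same cluster and picked after its value was seen, had 34 UMIs in 20 members and 1 UMI in the reference. Ifi208, Ifi209 and Ifi202b passed the filter on low values only through the members. Copies in this cluster are alike, and the Mndal and Ifi203 spans overlap, so the split of UMIs between them is uncertain.

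Interferon-inducible GTPases attack the vacuoles of intracellular microbes. Irgm1 had 42 UMIs in 26 members and 132 in 122 reference barcodes, a ratio of 6.90 (4.75 to 9.83), and Igtp 48 and 169 UMIs, a ratio of 6.16 (4.37 to 8.53). Gbp2 stood at 4.18 (2.49 to 6.71) and Gbp4 at 3.23 (2.31 to 4.41). Irgm1, Igtp and Gbp2 passed the filter on low values only through the members, and their ratios are given as values. Of 17 such genes in the files 7 passed the filter, and of the 4 with 50 CPM in the reference, Gbp4 among them, 3 were at least 2-fold higher, against 2.12% of all genes at that level. Per barcode the list had a median of 18.1 UMIs per 10000 in the members and 5.41 in the reference, and 50 members lay above the reference median.

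MHC class I genes, whose products present peptides and are read by NK receptors, differed less. Of 19 with at least 50 CPM in the reference, 5 were past 2-fold on the higher side and none on the lower side, and the median log2 ratio was 0.51. Over all genes at that level 2.12% were higher and the median was -0.25. Tap1, of the peptide transporter, stood at 2.76 (1.93 to 3.87), and the nonclassical genes H2-T22 and H2-T23 at 2.34 (1.97 to 2.76) and 2.32 (1.89 to 2.83). The common light chain B2m stood at 1.68 (1.54 to 1.83), H2-K1 at 1.37 (1.27 to 1.47) and H2-D1 at 1.08 (0.989 to 1.18), all picked after their values were seen. Of the genes named here the classical heavy chains H2-K1 and H2-D1 lay closest to the reference. H2 genes have near-identical copies, so their counts may be split unevenly. Cd74, the invariant chain of MHC class II, had 43 UMIs in 9 members, 14 of them in 1, and 80 UMIs in 42 reference barcodes.

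The interferon receptors were close to the reference level. Ifnar1 had 12 UMIs in the members and 232 in the reference, a ratio of 1.12 (0.571 to 2.0), and Ifnar2 17 and 479, a ratio of 0.770 (0.445 to 1.25). Both intervals include 1, so a difference was not detectable at this depth. Ifngr1, a receptor subunit for interferon gamma, was found in 48 members, at a ratio of 1.49 (1.31 to 1.70). Ifngr2 and Ifnlr1 had no UMI in either group. All 4 receptor genes that passed the filter lay within 2-fold of the reference. So did 2476 of all 2784 genes that passed it, so nothing is read from this count.

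The signal carriers downstream were not equally high. Irf9, the DNA-binding subunit of the complex that binds the ISRE, had 23 UMIs in the members and 178 in the reference, a ratio of 2.80 (1.73 to 4.34). Stat2, of the same complex and below the mean level asked for, had 16 and 70 UMIs. Stat3 stood at 2.23 (1.63 to 3.00). The kinases Jak1 and Tyk2 stood at 0.769 (0.622 to 0.940) and 0.678 (0.307 to 1.30), and Irf1, Irf8 and Stat4 at 1.12, 1.09 and 1.14. Of the genes named here with a mean of 50 CPM, Irf9 and Stat3 were past 2-fold on the higher side, Irf9 having passed the filter only through the members. Of the 8 genes of this list with 50 CPM in the reference, 2 were at least 2-fold higher. Over all genes at that level 2.12% were higher and 8.46% lower. No gene of this list that passed the filter was at least 2-fold lower.

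Feedback inhibitors split likewise. Socs1, which blocks Jak kinases, was found in 39 members with 99 UMIs, a ratio of 3.12 (2.5 to 3.85), and Cish, a related inhibitor, stood at 2.12 (1.27 to 3.35). Cish had 42.8 CPM in the reference and passed the filter only through the members, so its ratio is given as a value. The phosphatases Ptpn6 and Ptpn2 stood at 0.673 (0.409 to 1.05) and 0.759 (0.430 to 1.25). No transcript of a type I interferon was counted: Ifna1, Ifna2, Ifna4, Ifnb1, Ifne and Ifnk had 0 UMIs in members and reference, as had Ifnl2 and Ifnl3 of the lambda type. A count of 0 allows up to 3 UMIs, or 13.6 CPM in the members and 0.626 CPM in the reference. Ifng, the interferon that NK cells make, had 21 UMIs in 11 members, of which 1 member held 10, and 197 in 165 reference barcodes, a ratio of 2.31 (1.40 to 3.63). At 41.1 CPM in the reference, Ifng also passed the filter only through the members.

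The Ly6 surface proteins, encoded together on chromosome 15, differed in both directions. Ly6a (chr15:74994877-74998031), which encodes Sca-1, had 112 UMIs in 20 members and 27 UMIs in 12 reference barcodes, a ratio of 90.0 (58.7 to 142). It passed the filter on low values only through the members. Ly6e (chr15:74955051-74959905) was found in 53 members with 627 UMIs, a ratio of 4.5 (4.12 to 4.90). Ly6c2 (chr15:75108158-75111970), a gene of mature NK cells and monocytes, had 82 UMIs in 11 members and 4888 in 727 reference barcodes, a ratio of 0.364 (0.289 to 0.452). Members with Ly6a had 15713 CPM of the other interferon genes and 1668 CPM of terminal maturation genes, and members without it 11248 and 2791 CPM.

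Genes of terminally mature NK cells were low in the members. Of 11 such genes with at least 50 CPM in the reference, 8 were past 2-fold on the lower side and none on the higher side, and the median log2 ratio was -1.52. Over all 2872 genes at that level 8.46% were lower. Klrg1 (chr6:122270596-122282882), an inhibitory receptor of mature cells, had 15 UMIs in 7 members and 1794 in 698 reference barcodes, a ratio of 0.181 (0.101 to 0.300). S1pr5 (chr9:21242912-21248443), which guides NK cells out of marrow and lymph nodes, had 20 UMIs in 11 members and 1683 in 859 reference barcodes, a ratio of 0.258 (0.157 to 0.399). Few members held either transcript, while many reference barcodes did.

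Zeb2, a transcription factor of terminal maturation, stood at 0.233 (0.111 to 0.430), and Cma1, which encodes a chymase, at 0.196 (0.118 to 0.307). Klf2, which maintains circulation through S1pr1, had 67 UMIs in 25 members and 5035 in 1227 reference barcodes, a ratio of 0.289 (0.223 to 0.367). Cx3cr1, a chemokine receptor of mature NK cells and microglia, stood at 0.348 (0.149 to 0.690). Tbx21, which encodes the regulator T-bet, stood at 0.565 (0.390 to 0.794), and Irf8, of the same list, at 1.09 (0.928 to 1.28). The list therefore held members at the reference level too. Per barcode it had a median of 20.6 UMIs per 10000 in the members (0 to 92.9) and 54.4 in the reference (0 to 200), and 51 of 56 members lay below the reference median.

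Genes of less mature NK cells were high. Of 9 with at least 50 CPM in the reference, 4 were past 2-fold on the higher side and none on the lower side, and the median log2 ratio was 0.93. Over all genes at that level 2.12% were higher and the median was -0.25. Ltb, which encodes lymphotoxin beta, had 119 UMIs in 26 members and 705 in 231 reference barcodes, a ratio of 3.66 (2.99 to 4.45). Xcl1, a chemokine that draws dendritic cells, had 165 and 1396 UMIs, a ratio of 2.56 (2.17 to 3.01). Il7r, the interleukin-7 receptor, and Cd27 stood at 2.99 (2.0 to 4.34) and 2.0 (1.14 to 3.30), and Emb, an adhesion protein, at 4.52 (2.81 to 7.0). These 3 genes passed the filter only through the members. The list also holds Ly6e, which interferon can raise. Per barcode the list had a median of 54.8 UMIs per 10000 in members and 17.4 in the reference, with 52 members above the reference median.

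**Figure D4:**
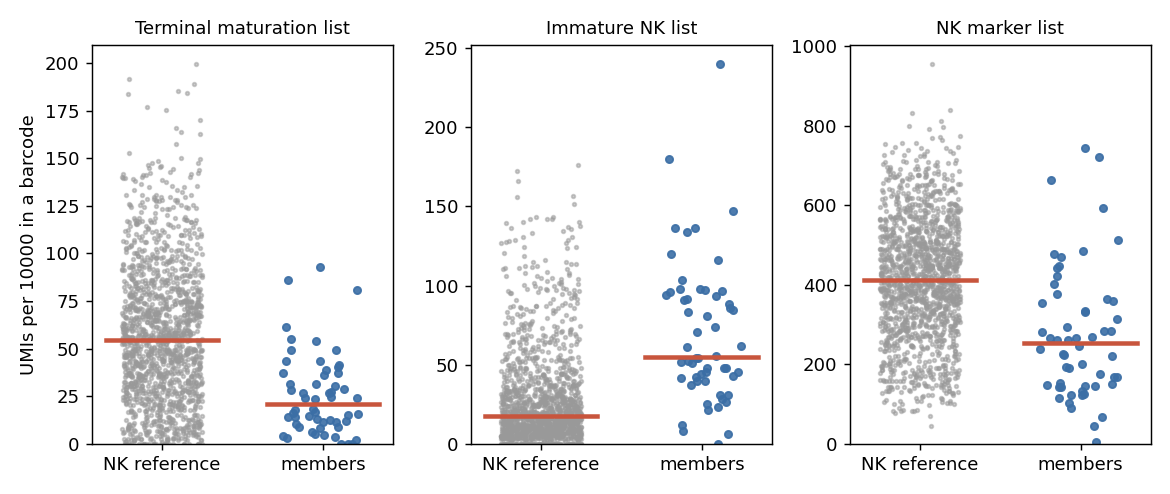
Each point is a wildtype barcode, in the NK reference or among the members, and the vertical axes give the UMIs per 10000 of the terminal maturation, immature NK and NK marker lists, with red bars at the medians. Member medians are 20.6, 54.8 and 252 against 54.4, 17.4 and 413 in the reference, and the groups overlap in all 3 lists.

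NK identity and killing genes were lower or near the reference. The reference was chosen by Ncr1 and Klrb1c, so their ratios of 0.618 (0.537 to 0.708) and 0.512 (0.425 to 0.610) partly follow from that choice. Klrk1, which encodes the activating receptor NKG2D, stood at 1.10 (0.955 to 1.27) and Eomes, an NK transcription factor, at 0.688 (0.471 to 0.972). Of the 15 NK markers 3 were at least 2-fold lower and none at least 2-fold higher. The lower ones were Klra8, Prf1 and Gzma. Over all genes with at least 50 CPM in the reference 8.46% were lower. Gzma, the most abundant granzyme, had 2097 UMIs in 45 members, a ratio of 0.50 (0.478 to 0.522), and Prf1, which encodes perforin, stood at 0.488 (0.408 to 0.578). Gzmb, the granzyme that starts apoptosis in targets, went the other way, with 1304 UMIs in 49 members and a ratio of 1.98 (1.87 to 2.09). Ccl5, a chemokine of mature NK cells, stood at 0.547 (0.528 to 0.567).

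NK receptor genes as a list lay near the middle, with a median log2 ratio of -0.26 against -0.25 over all genes at that level. Of 21 receptor genes 2 were at least 2-fold lower, near the 8.46% of all genes at that level, so nothing is read from this count. The 2 were Klra9, at 0.281 (0.168 to 0.440), and Klra8, at 0.449 (0.315 to 0.622). Klra genes have close copies, so the split of their UMIs is uncertain. Among single genes on the lower side, Serpinb9b, of a serpin family that inhibits granzymes, had 0 UMIs in members and 627 in 225 reference barcodes. Its interval reached up to a ratio of 0.128, or 7.82-fold lower. With a floor of 3 UMIs over the members Serpinb9b was 9.64-fold lower. BC018473 had 1 UMI in the members and 686 in 358 reference barcodes, a ratio of 0.0316 (0.000799 to 0.177). The histone genes Hist1h2ap and H2afz stood at 0.131 (0.0424 to 0.306) and 0.406 (0.358 to 0.460).

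Of the 13 genes of tissue-resident lymphocytes in the files 6 passed the filter, 3 of them only through the members, namely Cd69, Ahr and Cxcr6. Of the 3 with 50 CPM in the reference 1 was at least 2-fold higher, which was Rgs1, and none at least 2-fold lower. Over all genes at that level 2.12% were higher. Cd69, which holds lymphocytes in tissue by removing S1pr1 and is itself raised by interferon, had 38 UMIs in 18 members and 85 in 78 reference barcodes, a ratio of 9.69 (6.43 to 14.4). Ahr, a receptor for aryl hydrocarbons, stood at 5.10 (3.13 to 8.02), Cxcr6, a chemokine receptor of resident cells, at 3.77 (2.22 to 6.10) and Rgs1, a brake on chemokine signalling, at 2.94 (2.12 to 3.99). Itgae had 0 UMIs in members and 20 in the reference, and Itga1 4 and 120, and both were below the mean level asked for. Lilr4b, an inhibitory receptor picked after its value was seen, had 42 UMIs in 22 members and 22 in 20 reference barcodes.

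**Figure D5:**
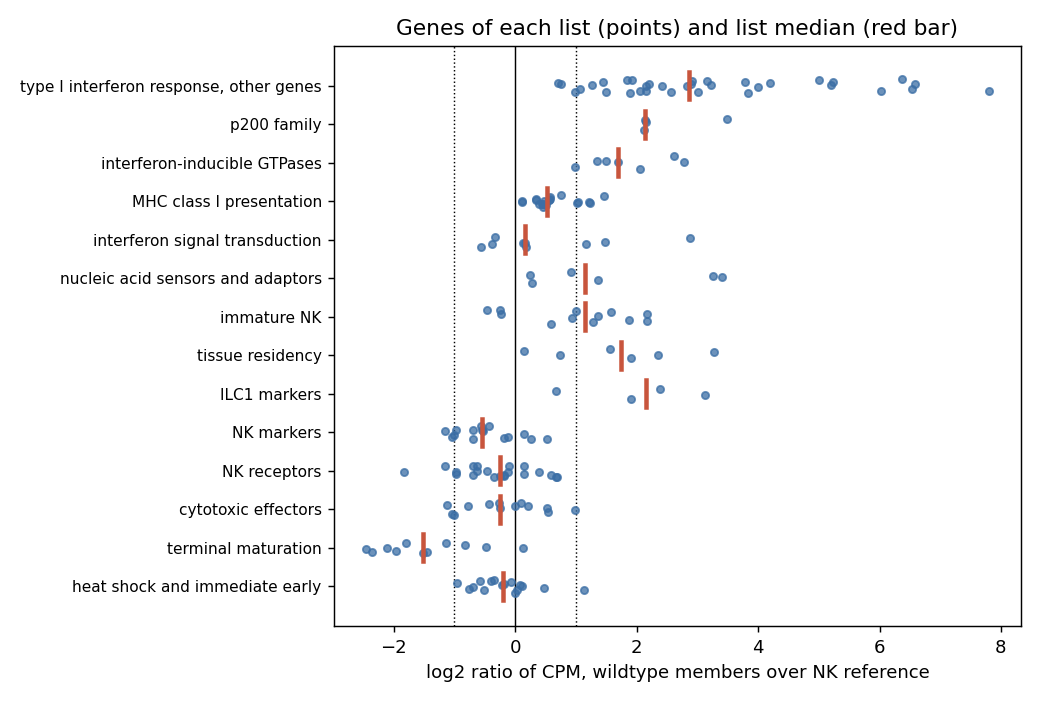
Log2 ratio of CPM, wildtype members over the NK reference (horizontal axis, dotted lines at 2-fold), for each gene that passed a mean of 50 CPM (points) in 14 gene lists, with the list median as a red bar. Most genes of the other interferon response list lie past the upper 2-fold line and most of terminal maturation past the lower one, and genes that passed only through the members are included.

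Tmem176a and Tmem176b encode membrane proteins found in innate lymphoid cells. A UMI of either was found in 16 of 56 members and in 68 of 1484 reference barcodes. Their ratios were 8.72 (5.79 to 12.9) and 5.20 (3.49 to 7.56), and both passed the filter on low values only through the members. The members were therefore also compared within each class. Among barcodes with Tmem176 UMIs the median log2 ratio was 2.70 for the 34 other interferon genes, of which 20 had passed only through the members, and -1.38 for terminal maturation. Among barcodes without them (38 members and 1415 reference barcodes, erythroid-rich ones left out) these medians were 2.93 and -1.76. The median of the 12 immature NK genes, of which 3 passed only through the members, was 0.43 with Tmem176 UMIs and 0.89 without, both below the 1.14 in all barcodes. For the 15 NK markers the median was -0.37 with Tmem176 UMIs and -0.25 without, against -0.54 in all barcodes.

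Single genes behaved alike or differently in these classes. Klrg1 stood at 0.278 (0.0875 to 0.681) with Tmem176 and 0.174 (0.0794 to 0.331) without, and Cd69 at 8.77 (3.41 to 25.2) and 9.40 (5.57 to 15.2). Gzmb stood at 1.78 (1.54 to 2.06) and 2.48 (2.33 to 2.64), and Gzma at 0.359 (0.314 to 0.410) and 0.667 (0.636 to 0.699). Prf1 stood at 0.645 (0.380 to 1.04) and 0.623 (0.511 to 0.753), at least 2-fold lower in neither class, against 0.488 in all. Ly6a stood at 10.6 (5.98 to 19.7) and 217 (111 to 473), since 17 of the 27 reference UMIs of Ly6a lay in the 68 Tmem176 barcodes. Il7r, at 1.24 (0.741 to 2.01) and 1.86 (0.837 to 3.63), had intervals that include 1 in both classes, against 2.99 in all. The same held for Cxcr6, at 1.28 (0.678 to 2.29) and 1.99 (0.527 to 5.34), against 3.77 in all. The difference between the classes was not tested.

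Members without Ncr1 or Klrb1c were high in interferon genes as well. The 8 that were not erythroid-rich had 22380 CPM of the other interferon list and 23804 CPM of NK markers, and Gzmb was found in all 8 and Gzma in 7. Klrg1 and S1pr5 had 0 UMIs in them. Their median depth was 2063 UMIs, below that of all members.

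Depth was equalised by thinning each barcode to 1400 UMIs, which left out 1 member and 116 reference barcodes. Bst2 was then found in 47.3% of 55 members (33.7 to 61.2) and 7.31% of 1368 reference barcodes (5.99 to 8.82), against 73.2% and 13.6% unthinned. Klf2 was found in 27.3% (16.1 to 41.0) and 70.5% (68.0 to 72.9). Klrg1 was found in 5.45% (1.14 to 15.1) and 33.8% (31.3 to 36.3), and unthinned in 12.5% and 47.0%. At equal depth these 3 genes kept the direction of their ratios. Eomes was found in 25.5% and 26.4%, and no order is read from it. Of 8 wildtype barcodes with at least 3 C1q UMIs, which should lack NK genes, Ncr1 was found in 50% and Klrg1 in 37.5%, unthinned at a median of 3206 UMIs. Of the 5 deep enough to thin, 40% (5.27 to 85.3) held Klrg1, so with these few barcodes free RNA cannot be told apart from expression for Klrg1 shares at or below that level.

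Barcodes that the rule left out for a Cd3 or C1q UMI also held interferon-high ones. Of 94 such wildtype barcodes 15 had a sum of at least 5 (16.0%, 9.22 to 24.95), 10 of them with Cd3 and 5 with C1q UMIs. Of 148 such 3xTg-AD barcodes 3 did (2.03%, 0.420 to 5.81), all with Cd3 UMIs. High sums of the 9 genes were thus not limited to the members.

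The 3xTg-AD library held 4 members, with sums of 32, 11, 10 and 5 UMIs at depths of 4062, 5379, 2646 and 4079 UMIs. All 4 had Ncr1, with 8, 4, 3 and 14 UMIs in that order, which does not by itself make them NK cells. Irf7 was found in all 4 (7, 3, 8 and 1 UMIs) and Isg15 in 3 (6, 2 and 1 UMIs), while Rsad2 and Ly6a had 0 UMIs in every one. Ly6e had 15, 13, 14 and 16 UMIs, and Klrg1 and S1pr5 had 0 in all 4. The other interferon genes stood at 155, 160, 159 and 63.7 UMIs per 10000, against a median of 28.4 and a highest value of 90.3 in the 1520 3xTg-AD reference barcodes. The 3 with the higher sums lay above every reference barcode of their library, and the member with a sum of 5, of which 4 UMIs were Ifi27l2a, lay within their range. The member with a sum of 32 alone held Tmem176a and Tmem176b, with 5 UMIs each, and Cd74, with 10.

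Below the limit the libraries differed less. In the NK reference Isg15 had 157 UMIs in the wildtype and 132 in the 3xTg-AD library, a ratio of 3xTg-AD over wildtype of 0.841 (0.662 to 1.07), and Irf7 290 and 270, a ratio of 0.931 (0.786 to 1.10). Bst2 stood at 0.920 (0.766 to 1.10), Zbp1 at 0.711 (0.589 to 0.857) and Rtp4 at 0.50 (0.346 to 0.714). Usp18 had 28 and 8 UMIs, a ratio of 0.286 (0.113 to 0.643), and Ly6a 27 and 0. The reference barcodes were chosen to have few UMIs of Isg15, Irf7 and Usp18, and the libraries are 1 preparation each.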

How the data were processed

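The authors deposited raw counts of UMIs per gene and barcode for each library, with no normalization. The submitters' processing notes name Cell Ranger 3.1.0, STAR and the mm10 build. Software version 3.0.2 stands in each matrix, per the file headers. No source used here names the annotation release.

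Members and reference barcodes were selected from these counts, UMIs were summed within each group and scaled to CPM, and ratios were given exact conditional Poisson 95% intervals (scipy 1.17.1, numpy 2.4.6, Python 3.11.15). Doublets were called with Scrublet in scanpy 1.11.5 and kept in the main values. Genes needed a mean of 50 CPM over both groups, and 2-fold was the limit for a count. Ratios and intervals were tested on simulated data. Coordinates of all 150 named genes come from GENCODE M21 on mm10, matched by identifier. The rule for named genes took the 15 higher and 15 lower genes whose interval lay farthest from 1, up to 4 genes of each of 29 lists, and a fixed set, and not all are printed. The members, lists and rules were chosen with earlier results of these data known. Some genes of the lists are not reported here.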

Additional observations from a re-analysis of the deposited data

How the results depend on the processing

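Counts of genes and list medians were recomputed under 18 alternatives, member counts under 10 and single genes under 12 to 15. Of the alternatives 3 were chosen after seeing the data: leaving out erythroid-rich barcodes, leaving out barcodes with a UMI of Cxcr6, Tmem176a or Tmem176b, and asking 50 CPM of the reference alone. Wildtype members ranged from 40 to 79, and 3xTg-AD members from 2 to 20. The median log2 ratio ranged from 1.67 to 3.36 for the other interferon genes, from -1.99 to -1.13 for terminal maturation, from 0.88 to 1.61 for immature NK genes and from -0.65 to -0.44 for NK markers, so none of these changed sign. A sum of at least 3 gave 20 members in 3xTg-AD, 62 lower genes and a terminal maturation median of -1.13. Thinning before the rule gave 2 members in 3xTg-AD, 446 higher and 363 lower genes, and medians of 3.36 for other interferon genes, 2.30 for GTPases and 1.61 for immature NK genes. A mean of 25 CPM gave 291 higher and 348 lower genes, and 100 CPM gave 74 and 49. Scaling without the 9 genes and without ribosomal and mitochondrial genes gave 239 higher genes. Leaving out the Cxcr6 and Tmem176 barcodes gave 231 lower genes. Asking 50 CPM of the reference gave 61 higher and 243 lower genes and a median of 1.67 for the other interferon genes. The higher genes made up 51.3% of all past 2-fold in the main setting and between 20.1% and 63.5% in the alternatives. Of the values of single genes, 1452 stayed within their interval, and 155 moved outside it without a 2-fold difference changing sign. In 22 values of 14 genes the log2 ratio lay on the other side of 0. Of these, 2 belong to genes at least 2-fold apart in the main setting: the log2 ratio of Ccl3 was 0.29 after thinning before the rule, and that of Egr1 was -0.33 without the Cxcr6 and Tmem176 barcodes. The causes were not tested.

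No paired analysis was possible because each genotype has 1 library. Genes at the level of Oas3 rest on few UMIs in 56 barcodes, and intervals leave out variation between cells, so they are too narrow for genes such as Cxcl10 and Cd74 whose UMIs lie in few barcodes.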

Other observations

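Stress and cell cycle genes were not high in the interferon-high members. Of 16 heat shock and immediate early genes that passed the filter on low values, 1 was past 2-fold on the higher side and none on the lower side. Over all genes that passed it 5.68% were higher and 5.39% lower. The median log2 ratio of the 16 genes was -0.21 against -0.16 over all genes. Hspd1, a mitochondrial chaperone, stood at a ratio of 0.620 (0.381 to 0.954), Ier2, an immediate early gene, at 0.587 (0.423 to 0.795) and Jun, of the AP-1 factor, at 1.39 (0.795 to 2.26). Per barcode this list had a median of 53.1 UMIs per 10000 in the members and 54.9 in the NK reference, so the groups lay close together.

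Of 3 cell cycle genes that passed the filter, 2 were at least 2-fold lower: Stmn1 and Tubb5, which act on microtubules, at 0.296 (0.147 to 0.533) and 0.365 (0.231 to 0.550). Over all genes that passed it 5.39% were lower. Mki67, a marker of dividing cells, had 2 UMIs in members and 69 in 16 reference barcodes, too few to compare. Among genes of apoptosis and survival, Bcl2l11, which encodes the death promoter BIM, stood at 2.17 (1.31 to 3.40), Casp8 at 1.29 (0.849 to 1.89) and Bax at 0.687 (0.478 to 0.956). Bcl2l11 had 43.8 CPM in the reference and passed the filter only through the members, so its ratio is given as a value. Il2ra, the high-affinity interleukin-2 receptor chain, picked after its value was seen, had 7 UMIs in 6 members and 10 in 7 reference barcodes. Wls, the carrier of Wnt proteins, stood at 0.726 (0.568 to 0.915).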
